A study of Mus musculus with 4 samples.

Results

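A set of 9 genes that encode sugar, urate and monocarboxylate transporters of the proximal tubule was followed through kidneys of *Hoxb7Cre+;Tfap2afl/fl* mice and their Cre-negative *Tfap2afl/fl* littermates. The 9 genes were chosen by symbol, *Slc5a1*, *Slc5a2*, *Slc5a4a*, *Slc5a8*, *Slc5a10*, *Slc5a12*, *Slc2a2*, *Slc2a9* and *Slc16a14*, out of 31053 genes in the count matrices, and all 9 were found. RNA of single nuclei was sequenced from 2 knockout mice (Cre+,Tfap2aFlox/Flox) and 2 control mice (Cre-,Tfap2aFlox/Flox), all male and 12 weeks old, so every mouse carried both floxed alleles and the groups differed in the Cre transgene. The *Hoxb7* promoter drives Cre in the ureteric lineage, from which the collecting duct arises, and not in the proximal tubule. The kidney slices had their cortex trimmed away to enrich the medulla, which limits how many nuclei of the cortical parts of the tubule could be captured. Each mouse gave 1 library.

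The proximal tubule takes up almost all filtered glucose, lactate and other small solutes, and it is divided along its length into the S1, S2 and S3 segments. At the brush border, sodium-coupled carriers of the SLC5 family draw solutes into the cell: SGLT2 (*Slc5a2*), a high-capacity glucose carrier known for the early tubule, SGLT1 (*Slc5a1*), a high-affinity glucose carrier known for the late tubule, SGLT5 (*Slc5a10*), which carries mannose and fructose, and the sodium-coupled monocarboxylate carriers SMCT2 (*Slc5a12*, low affinity) and SMCT1 (*Slc5a8*, high affinity), which carry lactate and related acids. *Slc5a4a* encodes an SGLT3 protein, which is described as a glucose sensor rather than a carrier. At the basolateral side, GLUT2 (*Slc2a2*) lets glucose leave the cell and GLUT9 (*Slc2a9*) carries urate. *Slc16a14* encodes a member of the monocarboxylate carrier family that is less well characterized.

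In GRCm38.p6, the assembly that mm10 names, *Slc5a1* lies on chromosome 5 from 33104219 to 33162699 and *Slc2a9* on the same chromosome from 38349272 to 38503147. *Slc5a4a* (76147451 to 76189265) and *Slc5a8* (88885992 to 88929515) share chromosome 10. *Slc5a2* lies on chromosome 7 (128265683 to 128272430), *Slc5a10* on chromosome 11 (61672782 to 61720817) and *Slc5a12* on chromosome 2 (110597299 to 110649345). *Slc2a2* lies on chromosome 3 (28697903 to 28728361) and *Slc16a14* on chromosome 1 (84905488 to 84935281). The annotated span of *Slc5a2* overlaps that of *Rusf1* and the span of *Slc5a10* overlaps that of *Fam83g*, both protein-coding. *Slc5a12*, *Slc2a2*, *Slc2a9* and *Slc16a14* each overlap an annotated long noncoding RNA. Overlap was read from coordinates without regard to strand, and reads from the shared stretches may make these counts less certain. *Slc5a4b*, a close copy of *Slc5a4a*, had 136 unique molecular identifiers (UMIs, 1 for each captured transcript) in proximal tubule nuclei against 6097 for *Slc5a4a*, and reads that match both copies make the split between them uncertain.

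Promoters are shown because hepatocyte nuclear factors (HNFs) are known regulators of proximal tubule carriers. RefSeq windows of 300 bases, from 250 before to 50 after an annotated start, were found for 7 of the 9 genes, with 8 windows in all. *Slc5a2* and *Slc5a12* had none. Both strands were searched for GTTAAT, 1 arm of the palindromic HNF1 site, for the whole site, which is that arm and its reverse complement 1 base apart, and for the HNF4 site CAAAGTNCA. The arm was found in windows of 2 of 7 genes, against 7.1% of 32851 mouse promoter windows, the whole site in 0 of 7 (0.00913% of windows) and the HNF4 letters in 0 of 7 (1.41%). In both printed windows, given 5′ to 3′ on the gene's strand, the capitals mark the arm as it reads on the other strand. It begins at position 12 from the start of *Slc5a4a* and at position -75 from 1 of the 2 starts of *Slc5a10*.
*Slc5a4a*, chr10:76147201-76147500, plus strand: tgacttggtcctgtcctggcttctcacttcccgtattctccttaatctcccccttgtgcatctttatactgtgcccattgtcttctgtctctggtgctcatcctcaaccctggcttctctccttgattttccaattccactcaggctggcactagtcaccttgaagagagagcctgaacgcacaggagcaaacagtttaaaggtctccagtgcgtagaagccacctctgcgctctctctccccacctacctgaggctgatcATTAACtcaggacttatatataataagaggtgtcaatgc
*Slc5a10*, chr11:61720750-61721049, minus strand: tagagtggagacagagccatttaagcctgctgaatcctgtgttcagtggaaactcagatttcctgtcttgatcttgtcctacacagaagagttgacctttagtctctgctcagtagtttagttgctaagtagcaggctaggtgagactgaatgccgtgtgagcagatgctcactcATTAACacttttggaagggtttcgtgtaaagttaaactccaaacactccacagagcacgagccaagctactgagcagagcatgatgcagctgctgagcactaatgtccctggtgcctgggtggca
A match of these letters is a description of the sequence only.

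The libraries held 42138345 and 24998797 UMIs in the control mice against 44964099 and 22179410 UMIs in the knockout mice. Nuclei kept after filtering held 51.8% and 64.6% of these UMIs in the control mice against 48.2% and 84.3% in the knockout mice. After filtering, 27343 nuclei were kept (7738 and 5430 of the controls, 7998 and 6177 of the knockouts), with a median of 2628 UMIs, and 75 barcodes occurred in more than 1 library. Proximal tubule nuclei numbered 13670. The median percentage of mitochondrial UMIs differed within both groups, at 1.66% and 0.671% in the control mice against 1.05% and 0.417% in the knockout mice. A cluster of 884 proximal tubule nuclei with low UMI totals and raised mitochondrial percentages was set aside; the control mice gave 255 and 25 of them and the knockout mice 575 and 29. *Tfap2a* UMIs of principal cells of the collecting duct stood at 55.7 and 95.0 CPM in the control mice against 61.1 and 106 CPM in the knockout mice, where CPM is the UMIs of a gene in counts per 1000000 UMIs of the same cells in that mouse. The libraries read the 3′ ends of transcripts, outside the deleted exons, so they are no check on which mice lost the gene.

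Proximal tubule nuclei were clustered again without the 9 transporter genes, and 6 subclusters could be named from segment markers. The 3676 S1-like nuclei held 7 or 8 of 8 S1 markers in each of both subclusters, the 6679 S2-like nuclei held 5 of 6 S2 markers, and the 3088 S3-like nuclei held 8 of 8 detected S3 markers (the listed marker *Slc22a13* had no UMI). Ordered by S1 and S3 markers, the subclusters are called S1a (1821 nuclei), S1b (1855), S2a (3227), S2b (3452), S3a (402) and S3b (2686). S2b carried 5 of 8 S3 markers as well. A further 227 nuclei stayed unnamed. S3-like nuclei made up 21.6% and 35.4% of the proximal tubule nuclei of the control mice against 17.3% and 23.3% of those of the knockout mice, so the second control mouse stood apart in this share, and values over the whole proximal tubule move with it. The subclusters were made from the same nuclei, so differences between segments are given as a description, with the number of mice that share the order and no test.

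Of the 9 genes, 7 lay mostly in the proximal tubule: it held between 86.1% (*Slc5a10*) and 92.9% (*Slc5a4a*) of the UMIs of *Slc5a2*, *Slc5a4a*, *Slc5a8*, *Slc5a10*, *Slc5a12*, *Slc2a2* and *Slc16a14*. For *Slc5a1* and *Slc2a9* this share was lower, and such shares also depend on how many nuclei each class gave. The proximal tubule held 46.5% of the 2705 UMIs of *Slc5a1* and 32.4% of the 1919 UMIs of *Slc2a9*. Along the tubule, *Slc5a2*, *Slc5a12*, *Slc16a14* and *Slc2a2* were highest in S1-like nuclei and lowest in S3-like nuclei in 4 of 4 mice, whereas *Slc5a1*, *Slc5a4a*, *Slc5a8* and *Slc5a10* ran the opposite way in 4 of 4 mice. For these 8 genes the ranges of the S1-like and S3-like levels over the mice did not overlap. *Slc2a9* differed by less than 1.5-fold between S1-like and S3-like nuclei in each mouse.

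**Figure D1:**
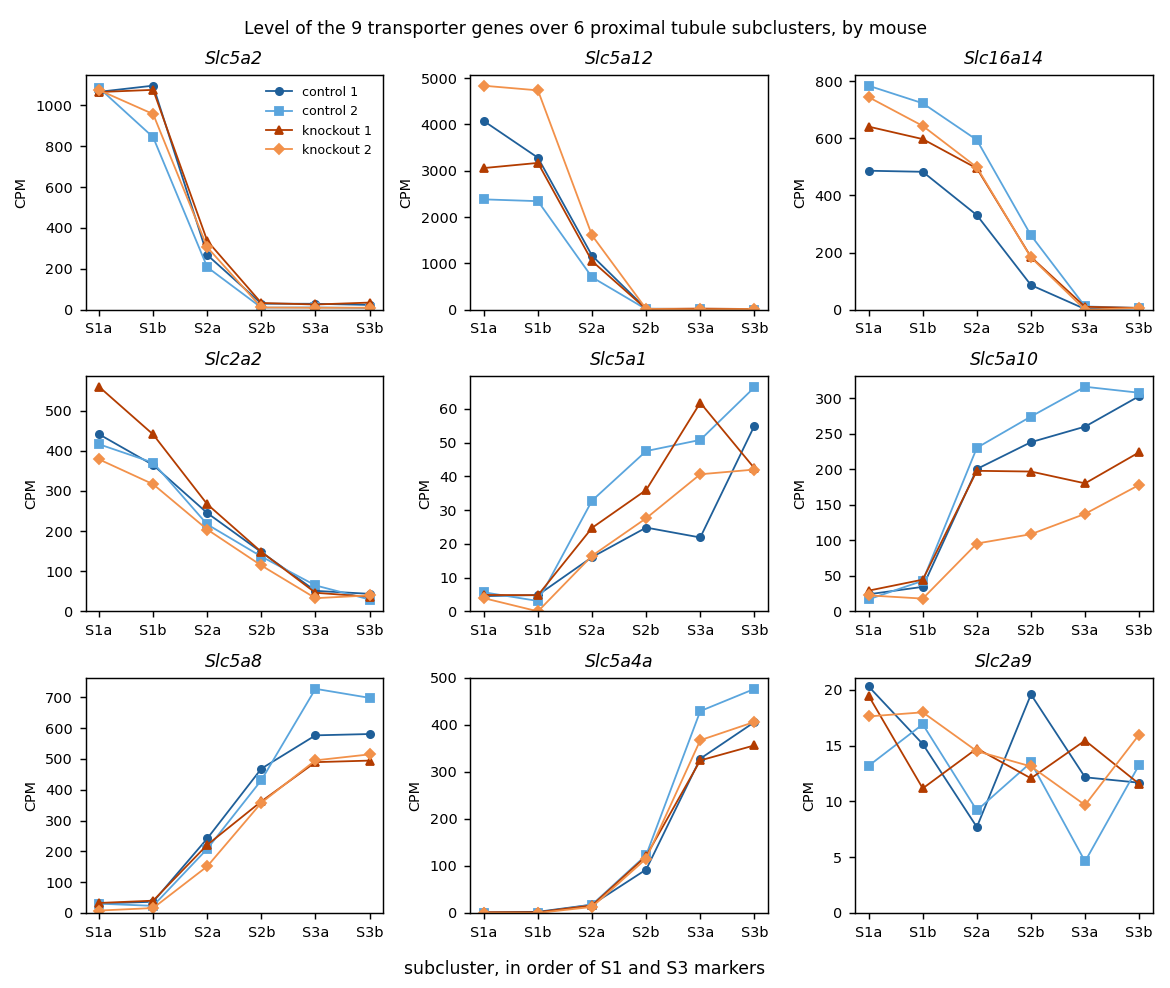
Level of each gene (CPM, vertical axis, from 0) in the 6 proximal tubule subclusters in order from S1a to S3b (horizontal axis), with 1 line for each of 4 mice (control 1 and 2 in blue, knockout 1 and 2 in orange). *Slc5a2* and *Slc5a12* fall from S1b to S2a and again from S2a to S2b, *Slc16a14* reaches its lowest level from S3a on, and *Slc5a4a* rises latest of the 4 genes that are high in S3, from a mean of 113 CPM in S2b to 363 CPM in S3a.

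*Slc5a2*, the glucose carrier SGLT2, stood at 1083 and 952 CPM in S1-like nuclei of the control mice against 1072 and 1006 CPM in those of the knockout mice. In S2-like nuclei the values were 137 and 104 CPM against 174 and 158 CPM, and in S3-like nuclei 24.5 and 8.67 CPM against 34.4 and 9.98 CPM. The S1-like level was between 31.1-fold and 110-fold the S3-like level of the same mouse. The 3 segments did not overlap, and within S1-like nuclei the 4 mice differed little. Free RNA of the suspension, measured in barcodes with few UMIs, would by itself give a mean of 18.5 CPM in S3-like nuclei, and the mean there was 19.4 CPM with 2 of 4 mice above their own expected value. A level of *Slc5a2* beyond free RNA was thus not detectable in S3-like nuclei.

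*Slc5a12*, the low-affinity lactate carrier SMCT2, showed the same shape with a steeper end. Its S1-like level was 3633 and 2361 CPM in the control mice against 3124 and 4775 CPM in the knockout mice, with the second control mouse lowest and the second knockout mouse highest. The S2-like level was 539.6 and 337 CPM against 496 and 810.0 CPM. In S3-like nuclei it was 15.7 and 5.06 CPM against 16.2 and 12.6 CPM, below the value expected from free RNA in 4 of 4 mice (mean 20.5 CPM). The fold between S1-like and S3-like nuclei ran from 193 to 467 over the mice. Both genes dropped over the same 2 steps, each lower in 4 of 4 mice with no overlap of the ranges. From S1b to S2a the mean of *Slc5a2* went from 993 to 279.8 CPM and that of *Slc5a12* from 3381 to 1130.2 CPM, the larger fall in CPM. From S2a to S2b they went on to 21.1 and 17.7 CPM, the larger fall by ratio, and no later step was without overlap for either gene.

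*Slc16a14* fell later along the tubule than *Slc5a2* and *Slc5a12* in mean level. It stood at 484 and 750.1 CPM in S1-like nuclei of the control mice against 614 and 685 CPM in those of the knockout mice, and at 197 and 418 CPM against 329 and 341 CPM in S2-like nuclei. S3-like nuclei had 4.24 and 7.23 CPM against 6.73 and 5.17 CPM, near the mean of 5.33 CPM expected from free RNA. The first control mouse was the lowest in S1-like and S2-like nuclei. From S2a to S2b the mean went from 479.7 to 179 CPM and from there to 6.07 CPM in S3a, both steps lower in 4 of 4 mice without overlap. The fold between S1-like and S3-like nuclei was between 91.4 and 132.

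*Slc2a2*, the basolateral glucose exit path GLUT2, declined step by step. The means from S1a to S3b were 449, 373, 233, 137, 48.8 and 37.4 CPM. It was lower at the next subcluster in 4 of 4 mice at each of the first 4 steps, and the ranges overlapped only at the first of these and at the last step. S1-like nuclei had 399 and 391 CPM in the control mice against 488 and 342 CPM in the knockout mice, and S3-like nuclei had 44.7 and 35.0 CPM against 37.2 and 38.4 CPM, between 8.91-fold and 13.1-fold lower. In contrast to the other three genes high in S1, the S3-like level of *Slc2a2* was above the value expected from free RNA in 4 of 4 mice (mean 6.99 CPM expected and 38.8 ± 4.14 CPM measured, SD, n = 4).

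*Slc5a8*, the high-affinity lactate carrier SMCT1, was the mirror of *Slc5a12*. In S1-like nuclei it stood at 33.9 and 26.2 CPM in the control mice against 36.9 and 12.6 CPM in the knockout mice, with a mean of 16.9 CPM expected from free RNA. S2-like nuclei had 366 and 326 CPM against 297 and 255 CPM, and S3-like nuclei 580.2 and 703 CPM against 494 and 511 CPM. No segment overlapped another. The fold between S3-like and S1-like nuclei was between 13.4 and 40.7. By ratio the largest step lay between S1b and S2a, where the mean went from 28.8 to 206 CPM, and it was flat from S3a (572 CPM) to S3b (572 CPM).

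*Slc5a10*, the mannose and fructose carrier SGLT5, rose at the same step and then changed little. Its mean rose from 35.1 CPM in S1b to 181 CPM in S2a, higher in 4 of 4 mice with no overlap, and each later step overlapped (205, 224 and 253 CPM in S2b, S3a and S3b). S1-like nuclei had 29.9 and 31.3 CPM in the control mice against 38.5 and 19.9 CPM in the knockout mice. S2-like nuclei had 221 and 254 CPM against 197 and 102 CPM, and S3-like nuclei 297 and 309 CPM against 221 and 170.3 CPM. The second knockout mouse was lowest in every segment. S2-like and S3-like levels overlapped over the mice, although S3-like was the higher within each of the 4 mice.

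*Slc5a1*, the high-affinity glucose carrier SGLT1, was sparse in the proximal tubule, with 38 UMIs in S1-like, 641 in S2-like and 556 in S3-like nuclei. S1-like nuclei had 4.70 and 4.23 CPM in the control mice against 4.82 and 1.62 CPM in the knockout mice. S2-like nuclei had 20.9 and 40.6 CPM against 30.8 and 22.0 CPM, and S3-like nuclei had 50.6 and 64.0 CPM against 43.9 and 41.8 CPM. The 3 segments did not overlap, and S3-like nuclei were between 9.11-fold and 25.8-fold above S1-like nuclei. With free RNA alone, a mean of 2.53 CPM would be expected in S1-like nuclei, beside a measured mean of 3.84 CPM.

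*Slc5a4a*, which encodes an SGLT3 protein, rose latest of the 4 genes high in S3. It had no UMI in S1-like nuclei of the second control and second knockout mice, and 5 UMIs (1.68 and 1.61 CPM) in each of the first mice, less than free RNA would give. S2-like nuclei had 58.7 and 73.4 CPM in the control mice against 72.2 and 64.3 CPM in the knockout mice. S3-like nuclei had 396 and 469 CPM against 354 and 399 CPM. Where no UMI was seen, 3 counts were taken as the limit that a count of 0 allows, which covers counting error only, and the S3-like level was then at least 185-fold higher in the second control mouse and at least 328-fold higher in the second knockout mouse. The means from S1b to S3b were 1.00, 16.1, 113, 363 and 411 CPM, and each of the steps up to S3a was an increase in 4 of 4 mice without overlap.

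*Slc2a9*, the urate carrier GLUT9, stood at 17.4 and 15.2 CPM in S1-like nuclei of the control mice against 14.5 and 17.8 CPM in those of the knockout mice. The S2-like values were 14.2 and 11.5 CPM against 13.3 and 13.8 CPM, lower than the S1-like value in 4 of 4 mice and without overlap (lowest S1-like value 14.5 CPM, highest S2-like value 14.2 CPM). The S3-like values were 11.7 and 11.9 CPM against 11.9 and 14.8 CPM. S1-like nuclei were the higher of these in 4 of 4 mice, by 1.21-fold to 1.49-fold, but the ranges overlapped, and none of the 5 steps between subclusters was free of overlap. All 3 segments were above free RNA in 4 of 4 mice, for which means of 0.863 to 1.11 CPM would be expected.

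Counts over single nuclei showed the same division. The expected numbers pool the segments, so differences between segments alone move these counts, and pairs within a segment were not counted. Each of 13447 proximal tubule nuclei with at least 1000 UMIs was thinned to 1000 UMIs, and nuclei with a UMI of both genes of a pair were counted against the number expected if the genes were detected independently within each mouse. *Slc5a2* and *Slc5a12* were found together in 2548 nuclei (1089 expected), and *Slc5a12* and *Slc16a14* in 1736 (999.7 expected). *Slc5a4a* and *Slc5a8* shared 557 nuclei (338 expected). In contrast, *Slc5a4a* and *Slc5a12* met in 24 nuclei (473 expected), *Slc5a2* and *Slc5a4a* in 40 (324 expected), and the 2 lactate carriers *Slc5a8* and *Slc5a12* in 284 (1044 expected). The glucose carriers *Slc5a1* and *Slc5a2* were found in the same nucleus 25 times (76.3 expected). For each pair named here, the count lay on the same side of the expected number in 4 of 4 mice. *Slc2a9* pairs were sparse (between 4 and 63 nuclei), and no pair of *Slc2a9* lay on one side in 4 of 4 mice.

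Outside the proximal tubule, the highest level of *Slc5a1* was in the thick ascending limb, the segment that reabsorbs salt through NKCC2. There it stood at 102 and 87.7 CPM in the control mice against 138 and 94.9 CPM in the knockout mice, above its S3-like level in 4 of 4 mice and without overlap (lowest 87.7 CPM, highest S3-like value 64.0 CPM). Free RNA would give between 1.46 and 5.29 CPM in these nuclei. After thinning to 1000 UMIs, between 6.84% and 11.4% of thick ascending limb nuclei had a UMI of *Slc5a1*, against 0% to 0.746% of nuclei of the distal convoluted tubule, at median depths of 1862 to 2014 and 1968 to 2248 UMIs. Without thinning the shares were 14.6% to 21.1% in the thick ascending limb.

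The thick ascending limb nuclei were not alike in *Slc5a1*. In the largest of 3 clusters, with 3693 nuclei and *Slc12a1* and *Sgcz* as its leading genes, the level was 42.4 and 50.6 CPM in the control mice against 74.7 and 36.1 CPM in the knockout mice. In a cluster of 926 nuclei led by *Slc12a1*, *Egf* and *Enox1* it was 241 and 187 CPM against 233 and 223 CPM. In a cluster of 579 nuclei, led by *Enox1*, *Egf* and *Casr*, it was 233 and 190.1 CPM against 252 and 266 CPM. The values of the latter clusters overlapped each other and lay above those of the largest cluster in every mouse. At a finer clustering, 32 nuclei (7 and 9 of the control mice, 7 and 9 of the knockout mice) formed a cluster with *Pappa2* and *Nos1* among its leading genes. *Nos1*, known from the macula densa, had between 1046 and 1912 CPM in it, and *Slc5a1* had 84.6 and 554 CPM in the control mice against 254 and 701 CPM in the knockout mice, from 1, 9, 4 and 11 UMIs. So few UMIs do not place this cluster relative to the others.

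Principal cells of the collecting duct had *Slc5a1* at 13.4 and 24.8 CPM in the control mice against 16.4 and 27.8 CPM in the knockout mice, above the value expected from free RNA in 4 of 4 mice (mean 3.99 CPM expected). The range overlapped that of S2-like nuclei. In the remaining classes the mean of *Slc5a1* was between 4.42 CPM (the unnamed cluster described next) and 12.8 CPM (immune, from 2 UMIs), at most 1.78 times the value expected from free RNA.

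*Slc2a9* had its highest level in a cluster of 747 nuclei that was left unnamed. Its leading genes were *Slc8a1*, *Egfem1*, *Calb1*, *Slc12a3* and *Phactr1*, and it carried all 9 principal cell markers while its leading genes included more markers of the connecting tubule than of principal cells. In this cluster *Slc2a9* stood at 428 and 571 CPM in the control mice against 420.0 and 625 CPM in the knockout mice, from 200, 214, 311 and 298 UMIs. Free RNA would give at most 2.73 CPM. After thinning, 29.8% to 41.5% of its nuclei had a UMI of *Slc2a9* (51.4% to 65.4% without thinning), against 0.0751% to 0.348% in the thick ascending limb. The next class, intercalated cells, had 30.5 and 2.26 CPM in the control mice against 33.9 and 38.8 CPM in the knockout mice, 5.15% of the mean of the unnamed cluster, and neither of the following classes in order, endothelial cells and the distal convoluted tubule, was separated from its neighbor. The thick ascending limb, at 1.36 CPM, was at the level of free RNA.

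**Figure D2:**
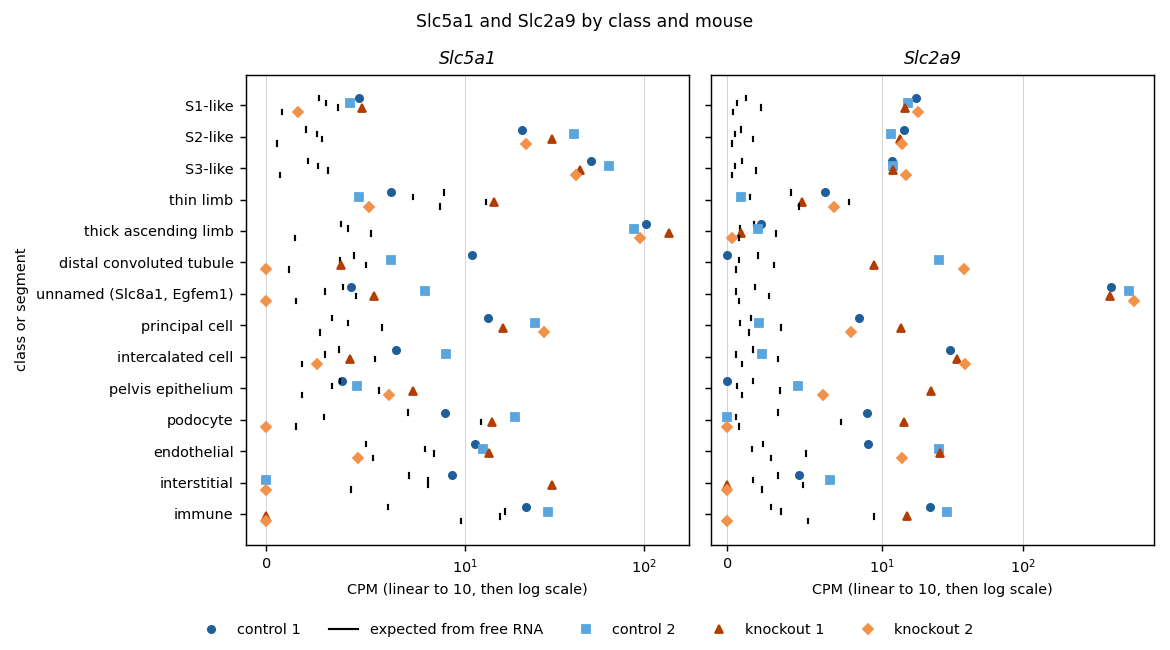
Levels of *Slc5a1* (left) and *Slc2a9* (right) in CPM on the horizontal axis (linear to 10, then on a log scale) in 14 classes and segments, with 1 symbol for each mouse and a short black upright tick for the value expected from free RNA in the same mouse. The thick ascending limb stands to the right of all 3 proximal segments for *Slc5a1* (87.7 to 138 CPM), and the unnamed cluster stands apart for *Slc2a9* (420.0 to 625 CPM).

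The other 7 genes had low values outside the proximal tubule. The highest mean of *Slc5a12* there was 212 CPM in the thin limb, 6.09% of its S1-like mean, where free RNA would give 122 CPM. For *Slc16a14* it was 54.2 CPM in the thin limb (27.3 CPM expected). At the finer clustering (resolution 0.8) the thin limb means were 43.0 CPM for *Slc5a12* and 10.1 CPM for *Slc16a14*. Without called doublets they were 158 and 31.4 CPM, and with nuclei under 1% mitochondrial UMIs that of *Slc5a12* was 375 CPM. Outside the proximal tubule the highest mean of *Slc5a4a* was 18.4 CPM in podocytes, from 7 UMIs (9.51 CPM expected). *Slc5a2*, *Slc5a8*, *Slc5a10* and *Slc2a2* had their highest mean outside the proximal tubule in immune cells, at 139, 73.4, 47.6 and 40.4 CPM from 17, 14, 8 and 7 UMIs, with 96.2, 74.4, 47.1 and 40.4 CPM expected. Free RNA of a single source keeps its genes in 1 ratio, and the expected values rest on that. In thin limb nuclei between 15.7% and 41.2% of UMIs were assigned to free RNA, more than in the proximal tubule (2.13% to 10.2%).

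**Figure D3:**
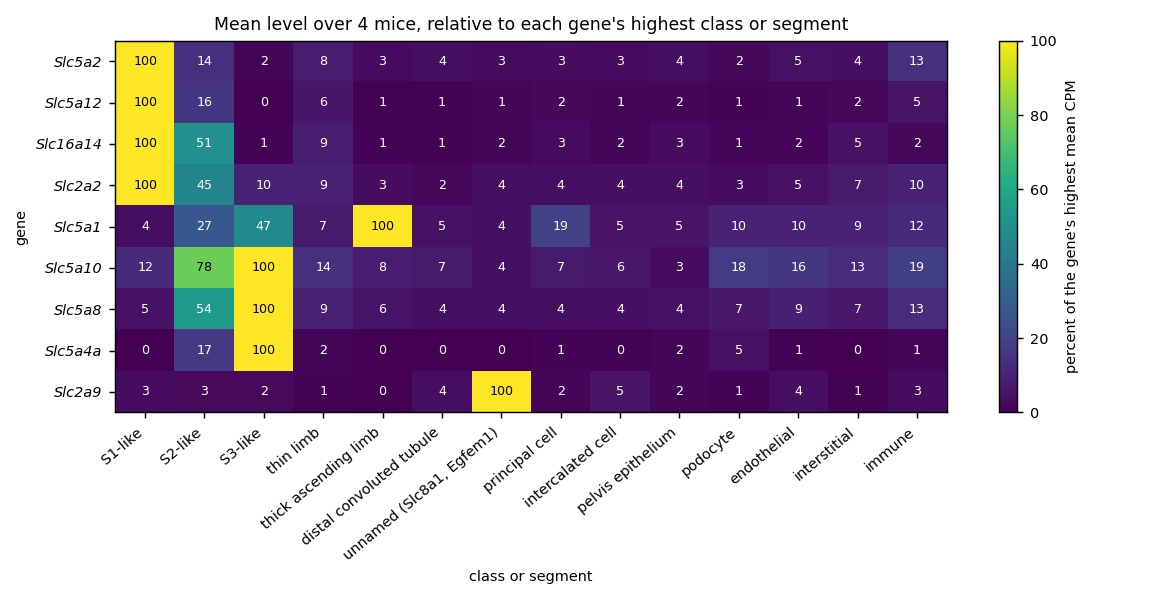
Mean level over 4 mice of each gene (row) in 14 classes and segments (columns), as a percentage of the gene's highest mean CPM, with the rounded value printed in each cell and the color scale from 0 to 100. *Slc5a1* is highest in the thick ascending limb with S3-like nuclei at 47.3%, and *Slc2a9* falls to 5.15% or less outside the unnamed cluster.

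Likeness to other genes was measured as Pearson's correlation of mean log2(CPM + 10) over 14 classes and segments, among 13411 genes with at least 200 UMIs. The 14 points share libraries and depth, and 3 of them are parts of 1 tubule, so r is given as a description. The genes most like *Slc5a2* were *Cyp2d26* (r = 0.97), *Halr1* (0.96) and *Prodh2* (0.96), the last an enzyme of hydroxyproline breakdown, and *Prodh2* also stood beside *Slc5a12* (0.97), with *Clec2h* (0.97) and *AC135964.2* (0.96). *Slc2a2* was most like *Lpar3* (0.99), *Hmcn2* (0.99) and *Gm31718* (0.98), and *Slc16a14* most like *Eef1akmt3* (0.98), *Olfr93* (0.97) and *Gm15883* (0.97). For the genes high in S3, *C8a*, *Gm15350* and *Mro* were most like *Slc5a4a* (0.98 each). *Rdh16f2* (0.98), *Gm27216* (0.97) and *Acsm3* (0.97) were most like *Slc5a8* (*Acsm3* is also an S3 marker used to name the segment), and *Haao* (0.96), *Arsg* (0.96) and *Slc5a8* itself (0.95) most like *Slc5a10*. *Slc5a1* was most like *P2rx5* (0.93), *Gm43016* (0.91) and *Cnbd1* (0.89), and *Slc2a9* most like *Trpv5*, the epithelial calcium channel (0.95), *Gm33051* (0.94) and *Egfem1* (0.93). Among the 9 genes themselves, the pairs highest on this measure were *Slc5a12* with *Slc16a14* (0.96), *Slc5a8* with *Slc5a10* (0.95) and *Slc5a2* with *Slc5a12* (0.95).

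Related carriers and enzymes had segment patterns of their own. Among the other SLC5 genes, *Slc5a11*, an inositol carrier, had a mean of 113 CPM in S1-like and 84.4 CPM in S3-like nuclei, higher in S1-like nuclei of 4 of 4 mice, and *Slc5a6*, the multivitamin carrier, ran the other way (11.1 and 25.4 CPM). *Slc5a9*, another sugar carrier, was lowest in the middle, at 43.5, 16.0 and 44.5 CPM in S1-like, S2-like and S3-like nuclei. *Slc2a5*, the fructose carrier GLUT5, was higher in S3-like nuclei (51.8 CPM in S1-like and 89.6 CPM in S3-like) and *Slc2a12* in S1-like nuclei (23.4 and 6.98 CPM), each in 4 of 4 mice. *Slc2a1*, with 318 UMIs, had no common order.

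In the SLC16 family, *Slc16a9* was higher in S3-like nuclei (160.3 CPM in S1-like and 523 CPM in S3-like) and *Slc16a12*, a creatine carrier, in S1-like nuclei (444 and 56.4 CPM). Both orders were shared by 4 of 4 mice. Of the scaffold and partner genes, *Pdzk1ip1*, whose product MAP17 is a partner of SGLT2, had 413 and 123 CPM and the sodium-proton exchanger *Slc9a3* 434 and 7.17 CPM, while *Pdzk1* was at 691 and 723 CPM. *Gk* (1096 and 2262 CPM) and *Pck1* (349 and 522 CPM) were higher in S3-like than in S1-like nuclei, in 4 of 4 mice each. The mean of *Pck1* was highest in S2-like nuclei, at 840 CPM. Between the same 2 segments, the urate-related carriers *Slc17a3* (458 and 949 CPM) and *Slc17a1* (452 and 585 CPM) were higher in S3-like nuclei. *Abcg2* (380.5 and 256 CPM) was higher in S1-like nuclei. *Slc17a3*, *Slc17a1* and *Abcg2* each had their highest mean in S2-like nuclei, at 1053, 734 and 404 CPM. Among transcription factors, *Maf* (877 CPM in S1-like and 485 CPM in S2-like nuclei) and *Cux1* (769 CPM in S1-like and 504.7 CPM in S3-like) were lower in S3-like nuclei and *Hnf4g* (251 and 544 CPM) higher, again in 4 of 4 mice. Of the injury genes, *Spp1* had 251 and 81.5 CPM, *Dcdc2a* 1.96 and 82.2 CPM and *Havcr1* 2.51 and 53.2 CPM.

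The comparison of knockout with control mice asked whether loss of *Tfap2a* in the collecting duct went with a different level of these transporters. None of the 9 genes passed the test in the proximal tubule as a whole or in any segment. UMIs were summed over each mouse, and edgeR's quasi-likelihood test was fitted on all genes with at least 10 UMIs, with Benjamini-Hochberg adjustment and an adjusted p under 0.05 as the threshold. In the proximal tubule 0 of 9 genes were called, against 0.00565% of all 17710 genes tested. An unadjusted p under 0.05 was found for 2 of the 9, *Slc5a8* and *Slc5a10*, and for 626 of the 17710. S1-like, S2-like and S3-like nuclei gave 0 of 9 each, against 0.00731%, 0% and 0.0274% of all genes called. At an unadjusted p under 0.05 stood 0, 0 and 1 of the 9, beside 364 of 13675, 489 of 15814 and 430 of 14616 genes. DESeq2 also called 0 of 9 in each, with 2, 0, 1 and 1 of them at an unadjusted p under 0.05. Over all genes DESeq2 had 387, 139, 279 and 155 at that p. With 2 mice against 2 the power over all tested genes was low. In simulated counts, 49.4% of 4-fold and 6.19% of 2-fold changes were recovered in the proximal tubule, and 35.3% and 1.74% in S3-like nuclei. The changes were placed in genes drawn from all those with at least 10 UMIs, with a spread set by a formula. These rates are therefore not the power for the 9 genes. The p-values measure only the spread between these mice.

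Over the whole proximal tubule the values of the 4 genes high in S1 lay above 0 on the log2 scale and those of the 4 genes high in S3 below it. *Slc5a12* had 1125 and 541 CPM in the control mice against 1006 and 1480.5 CPM in the knockout mice (log2 fold change 0.56, SE 0.39), and *Slc16a14* 216 and 314 CPM against 333 and 339 CPM (0.33, SE 0.21). *Slc5a2* had 0.29 (SE 0.26) and *Slc2a2* 0.16 (SE 0.24). *Slc5a8* had 340.1 and 421 CPM in the control mice against 273 and 260.5 CPM in the knockout mice (-0.52, SE 0.17), and *Slc5a10* 196 and 239 CPM against 166 and 100.1 CPM (-0.72, SE 0.28). For both of them the knockout mice lay below the control mice without overlap, and for *Slc16a14* they lay above. *Slc5a4a* had -0.54 (SE 0.27), *Slc5a1* -0.46 (SE 0.30) and *Slc2a9* 0.05 (SE 0.19). The segment shares moved with these values: the 9 listed S3 markers, of which 8 were tested, 0 called and all 8 below 0, summed to 6890.5 and 10049.7 CPM in the control mice against 5991 and 6057 CPM in the knockout mice, with *Slc22a13* at 0. Their part in the result was not tested.

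Within S3-like nuclei, *Slc5a10* had 297 and 309 CPM in the control mice against 221 and 170.3 CPM in the knockout mice, which is -0.67 on the log2 scale (SE 0.20, edgeR's unadjusted p = 0.0122, adjusted p = 0.999). The groups did not overlap, and the change did not pass the adjustment over all genes. Over the alternatives the value stayed between -0.88 and -0.48 with an adjusted p of at least 0.157. *Slc5a8* (-0.39, SE 0.18) and *Slc5a1* (-0.45, SE 0.21) were also lower in both knockout mice than in both control mice, and *Slc5a4a* overlapped (-0.24, SE 0.18). In S2-like nuclei *Slc5a10* had -0.71 (SE 0.32), *Slc5a12* 0.52 (SE 0.32), *Slc5a2* 0.41 (SE 0.20) and *Slc5a8* -0.37 (SE 0.18). The S3 markers moved within segments too: in S2-like nuclei 8 of 8 tested lay below 0 (median -0.58, 0 called), with sums of 5557 and 6204 CPM in the control mice against 4425 and 4204 CPM in the knockout mice, and in S3-like nuclei 7 of 8 lay below 0 (median -0.22, 0 called). Their part in the segment values was not tested. In S1-like nuclei, *Slc5a12* had 0.36 (SE 0.31), and *Slc5a2* (-0.01, SE 0.20), *Slc2a2* (0.03, SE 0.23) and *Slc16a14* (0.04, SE 0.26) were close to 0. The difference between the S3-like and S1-like changes was tested as an interaction of segment and genotype: 0 of 9 genes were called (1 at an unadjusted p under 0.05, *Slc5a10* with -0.57, SE 0.24), against 0.125% of 16046 genes tested, and DESeq2 called 0 of 9 (0 at an unadjusted p under 0.05). After subtraction of free RNA, *Slc5a2* was called in this test (6.12, SE 1.09, adjusted p = 0.00315), where its S3-like counts were those left after subtraction of a free RNA level about as large as the measured one.

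**Figure D4:**
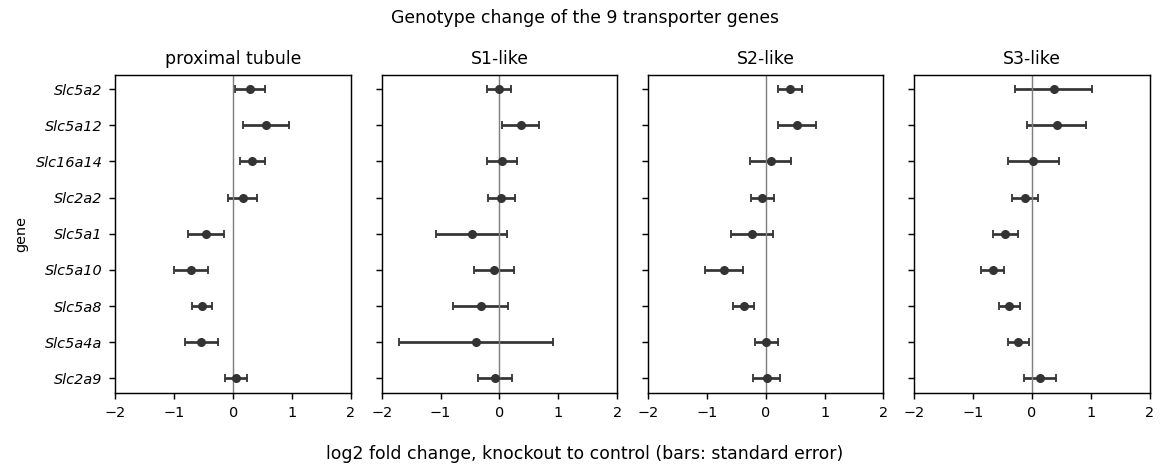
Log2 fold change of knockout to control mice (horizontal axis, 2 mice against 2, bars show the standard error of edgeR's fit) for each gene (vertical axis) in the whole proximal tubule and in S1-like, S2-like and S3-like nuclei. *Slc5a10* lies at -0.72 in the whole proximal tubule and at -0.67 in S3-like nuclei, *Slc5a2*, *Slc2a2* and *Slc16a14* lie within 0.04 of 0 in S1-like nuclei, and none passed the test.

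In the 11 classes outside the proximal tubule, 0 of 75 tests of a member gene passed the adjustment. Of all genes, edgeR called 0.00929% in the distal convoluted tubule, 0.016% in endothelial cells, 0.0135% in the thick ascending limb and 0% in the other classes. An unadjusted p under 0.05 was found in 12 of the 75. Among all genes it was found for 448 of 14777 in the thick ascending limb, 207 of 10766 in the distal convoluted tubule and 444 of 10304 in the pelvis epithelium. In principal cells 303 of 13616 genes had such a p, in intercalated cells 221 of 11218 and in endothelial cells 458 of 12481. The counts were 292 of 8865 in interstitial cells, 145 of 4158 in immune cells and 116 of 5504 in podocytes. The share among the 75 was larger than in each class listed here, and its cause was not tested. DESeq2 called 0 of 75 (5 at an unadjusted p under 0.05). *Slc5a1* in the thick ascending limb had a log2 fold change of 0.29 (SE 0.25) and *Slc2a9* in the unnamed cluster 0.06 (SE 0.33). The lowest adjusted p was that of *Slc5a12* in the epithelium of the renal pelvis (log2 fold change 3.18, SE 0.61, edgeR's adjusted p = 0.0969), with 19.2 and 4.56 CPM in the control mice against 96.1 and 92.9 CPM in the knockout mice, from 5, 2, 13 and 15 UMIs in 67, 93, 31 and 31 nuclei. Both knockout mice lay above both control mice. Free RNA of this gene moved with the groups: expected values were 36.4 and 11.1 CPM against 63.6 and 47.6 CPM, and in the barcodes with few UMIs *Slc5a12* itself had 245 and 158 CPM in the control mice against 356 and 809 CPM in the knockout mice. Their part in the result was not tested. The call turned with single libraries: without control replicate 1 the adjusted p was 8.61e-05, without knockout replicate 1 0.00919 and without knockout replicate 2 0.0249, while it was 0.153 without control replicate 2, and over all alternatives it ran from 8.61e-05 to 1.00. Without control replicate 1, *Slc5a12* was also called in the thin limb (1.85, SE 0.41, adjusted p = 0.00924), and without knockout replicate 1, *Slc5a8* (-1.62, SE 0.41, adjusted p = 0.00897) and *Slc5a10* (-2.03, SE 0.50, adjusted p = 0.00773) were called in the thick ascending limb, where their mean levels were 1.32 and 1.23 times those expected from free RNA.

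The related lists gave no call with edgeR either. In the proximal tubule, edgeR called 0 of 4 tested SLC5 genes outside the 9, 0 of 7 SLC2 genes, 0 of 14 SLC16 genes and chaperones, 0 of 6 scaffold and partner genes, 0 of 16 enzymes of gluconeogenesis, fructose and lactate handling, 0 of 6 urate carriers, 0 of 7 transcription factors and 0 of 7 injury genes. An unadjusted p under 0.05 was found for 3 of 67 genes, beside 626 of all 17710 genes tested. Among the 3 were *Pck1*, the entry enzyme of gluconeogenesis (log2 fold change 0.79, SE 0.16), and *Cdh6* (-0.76, SE 0.29), which is named after its value was seen. The median log2 fold changes of the lists, in the order given, were -0.20, -0.21, -0.11, -0.08, 0.16, 0.09, 0.08 and -0.72, beside 0.01 over all genes tested. Of the enzymes, 13 of 16 lay above 0, and of the injury genes 6 of 7 lay below it. Marker lists of other tubule cells went both ways in the same nuclei, with 0 called in each list given here. Below 0 lay 9 of 9 genes for the thin limb (median -0.55) and 7 of 8 for the thick ascending limb (median -0.39). Above 0 lay 5 of 5 tested genes for the connecting tubule (median 0.0986) and 7 of 9 for principal cells (median 0.168). For the distal convoluted tubule 3 lay above 0 and 4 below, and for intercalated cells 3 above and 6 below. The thin limb sums were 744 and 828 CPM in the control mice against 676 and 531 CPM in the knockout mice, and the thick ascending limb sums 440.1 and 436 CPM against 466 and 185 CPM. *Cdh6* itself had a higher mean in the thick ascending limb (36.6 CPM) than in S3-like nuclei (9.77 CPM). Their part in the result was not tested. Within S3-like nuclei the injury list had a median of -0.15 over 4 genes tested. In S1-like, S2-like and S3-like nuclei edgeR called 0 of 62, 0 of 65 and 0 of 62 genes of these lists, with 6, 3 and 4 at an unadjusted p under 0.05. Over all genes, 364 of 13675, 489 of 15814 and 430 of 14616 had such a p. DESeq2 called 0 of 67 in the whole proximal tubule (2 at an unadjusted p under 0.05) and 0, 1 and 0 genes in the S1-like, S2-like and S3-like nuclei.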

How the data were processed

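The authors deposited raw UMI counts per gene and barcode, made with Cell Ranger 3.0.2 from 10x Chromium 3′ libraries against mm10, unnormalized. Whether intronic reads were counted is not given in the sources used here. For each mouse, of the 10000 barcodes with most UMIs, nuclei were kept within the study's limits (500 to 4000 genes, less than 5% of UMIs mitochondrial). Nuclei were clustered in Seurat 5.3.0 (30 dimensions, resolution 0.5) without the 9 genes, 7 of which were among the variable genes, leaving 1993. Clusters were named from marker lists (at least 3 markers), and proximal subclusters by markers at 50% or more of their highest level, with a gap of at least 10 points. Doublets were called from simulated pairs (4.35% to 6.40% of nuclei per mouse). Clusters with over 50% of them were set aside (624 nuclei).

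UMI sums of each class in each mouse entered edgeR 4.0.16 (quasi-likelihood, TMM, genes with 10 UMIs or more over the mice, Benjamini-Hochberg) where each mouse had at least 10 nuclei, against DESeq2 1.42.0 as an alternative. Levels are CPM with an SD over 4 mice. Free RNA was the profile of barcodes under 100 UMIs in each mouse, and its share in a class was the median, over markers that the class should lack, of the marker's share in the class divided by that in the free RNA. Shares of nuclei with a UMI were compared after thinning to 1000 UMIs. The replicate libraries of a group differed well beyond sampling noise (chi-square per degree of freedom 34.8 and 43.4). The tests were checked on simulated counts. Named genes are the 9 members, the 3 genes most like each, and, of each related list, the genes called or otherwise the 3 with most UMIs in the proximal tubule. Some genes that this rule names are not reported here. The members and lists were chosen with earlier results of these data known. Nuclei of the damaged cluster entered 1 alternative only.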

Additional observations from a re-analysis of the deposited data

How the results depend on the processing

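Under every alternative run, 4 genes were higher in S3-like and 5 in S1-like nuclei, and no member was called in the proximal tubule, S1-like, S2-like or S3-like nuclei under any of them. In the classes outside the proximal tubule, where 0 members passed, leaving out 1 mouse gave 0 to 3 calls, no filter on low counts 1, an adjusted p under 0.1 1 (*Slc5a12* in the pelvis epithelium in both), and a replicate block 4 (*Slc5a12* in principal cells, pelvis epithelium and thin limb, and *Slc16a14* in thin limb). For the S3-like minus S1-like difference, subtraction of free RNA gave 1 call (*Slc5a2*). Only 2 pairs share replicate numbers, and nothing says that a number marks a shared litter or day, so the block is not taken as a pairing. In both groups, replicate 1 had the larger UMI total, the smaller share of UMIs in kept nuclei and the higher mitochondrial median. The main test holds no term for this split. Deviations of mice with the same number correlated at 0.469, 0.499, 0.438 and 0.548 in the proximal tubule, S1-like, S2-like and S3-like nuclei. With the members kept for clustering, the S2-like means were 232 CPM for *Slc5a2*, 889 CPM for *Slc5a12* and 26.8 CPM for *Slc5a4a*, over 1.5 times from the values given.

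Counts over all genes moved more. In the proximal tubule 1 gene was called, against 20 with DESeq2, 5 without a filter, 17 with the replicate block and 0 with free RNA subtracted. S1-like nuclei gave 1, against 9 with DESeq2, 94 without a filter, 0 with filterByExpr, without TMM, with free RNA subtracted or with the members kept for clustering, and 0 to 66 without 1 mouse. S2-like nuclei gave 0, against 21, 45 and 18 with DESeq2, no filter and the block, and 1 under 1% mitochondrial UMIs. S3-like nuclei gave 4, against 14, 11 and 35, with 1 under filterByExpr and 2 with free RNA subtracted. The S3-like minus S1-like difference gave 20, against 2, 46 and 62, with 4 under filterByExpr, 37 with free RNA subtracted, 46 with the members kept, 47 at resolution 0.8, 32 under 1% mitochondrial UMIs and 0 to 66 without 1 mouse.

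Of 397 log2 fold changes recomputed in the proximal tubule and its segments, 49 turned sign, and none of the 397 was called. Turns in the thick ascending limb and the thin limb, given below, lie outside this count. With nuclei under 1% mitochondrial UMIs, *Slc5a2* (-0.034) and *Slc2a2* (-0.078) turned in the proximal tubule, *Slc5a2* (0.0059) and *Slc2a2* (-0.016) in S1-like nuclei, and *Slc16a14* in S2-like (-0.0030) and S3-like nuclei (-0.39). With free RNA subtracted, *Slc2a9* turned in the proximal tubule (-0.023) and S2-like nuclei (-0.044), *Slc5a8* (0.092) and *Slc5a10* (0.14) in S1-like, *Slc5a4a* in S2-like (-0.022) and *Slc16a14* in S3-like nuclei (-0.45). Without TMM *Slc5a2* was 0.029 in S1-like nuclei, without called doublets *Slc2a9* was -0.047 in S2-like nuclei, and with the block *Slc5a10* was -0.14 in the thick ascending limb. At resolution 0.8, *Slc5a4a* was -0.024 in S2-like, *Slc16a14* -0.033 in S3-like nuclei and *Slc5a2* -0.42 in the thin limb. With the members kept for clustering, *Slc5a4a* was -0.28 in S2-like and *Slc16a14* -0.094 in S3-like nuclei. Causes were not tested.

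Leaving out 1 mouse at a time also turned signs. In the proximal tubule *Slc5a2* ran from -0.017 to 0.67, *Slc2a2* from -0.12 to 0.37 and *Slc2a9* from -0.051 to 0.15. In S1-like nuclei *Slc5a1* ran from -1.48 to 0.046, *Slc5a2* from -0.091 to 0.099, *Slc5a4a* from -0.93 to 0.42, *Slc5a8* from -1.31 to 0.23, *Slc5a10* from -0.65 to 0.30, *Slc2a2* from -0.24 to 0.26, *Slc2a9* from -0.24 to 0.073 and *Slc16a14* from -0.23 to 0.39. In S2-like nuclei *Slc5a1* ran from -0.66 to 0.29, *Slc5a4a* from -0.15 to 0.17, *Slc2a2* from -0.26 to 0.094, *Slc2a9* from -0.12 to 0.20 and *Slc16a14* from -0.36 to 0.71. In S3-like nuclei *Slc5a2* ran from -0.79 to 1.32, *Slc5a12* from -0.16 to 1.47, *Slc2a2* from -0.28 to 0.076, *Slc2a9* from -0.019 to 0.27 and *Slc16a14* from -0.31 to 0.44. In the thick ascending limb *Slc5a10* ran from -2.03 to 1.01 and *Slc5a8* from -1.62 to 0.28.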
